A study of Danio rerio with 12 samples.

Results

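FGF20, SALL1, edn3b, WNT3A, jag1b and CXCL12 are 5 secreted or membrane-bound ligands and 1 transcription factor of the regenerating zebrafish caudal fin. They were taken as 6 of the 33737 gene identifiers of the count table because their levels had been seen to differ between stages in these same libraries, so their own courses are described here without a test. The libraries came from caudal fin tissue of adult AB-Tu zebrafish, 8 to 18 months old, at 0, 2, 3 and 10 days post amputation (dpa). Each stage had 3 libraries, and each library was made from a batch of 6 fish, which gives 12 libraries in all. The 0 dpa libraries, here called the uncut fin, are the reference for later tissue. No allele, transgene or agent is named for any group, so time after the cut is the only labelled difference between them. Fish were anesthetized for a first amputation and again for collection, and whether the same fish gave more than 1 stage is not stated.

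A cut fin ray is closed by a wound epidermis, and beneath it lineage-restricted cells gather as the blastema, which then grows and forms new bone, vessels and pigment. FGF20 belongs to the secreted fibroblast growth factors, which act through FGF receptor kinases, and zebrafish that lack fgf20a do not form a blastema. SALL1 is a zinc-finger transcription factor of the Spalt family. WNT3A is a secreted ligand that can act through Frizzled receptors, LRP coreceptors and beta-catenin with LEF1 and TCF7, and Wnt activity is needed for zebrafish fin regrowth. The jag1b protein is a membrane-bound ligand that activates Notch receptors on the neighbouring cell. CXCL12 is a chemokine read by CXCR4 and by the scavenging receptor ACKR3. Endothelin 3, of which edn3b encodes a form, is read by endothelin B receptors and is known in zebrafish for its part in pigment cell development.

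The identifiers were ENSDARG00000007356 for FGF20, ENSDARG00000075891 for SALL1, ENSDARG00000086669 for edn3b, ENSDARG00000058822 for WNT3A, ENSDARG00000013168 for jag1b and ENSDARG00000037116 for CXCL12. FGF20 and SALL1 each stood on a further identifier, which is treated here as a different gene. The list of gene names does not say which zebrafish copy a capital-letter symbol stands for. Reads shared between such copies may have been split between them. All 6 passed the filter on low counts, as did 16612 identifiers in all. Total counts ran from 8833337 to 22843743 per library. Levels are CPM, counts scaled to a common library size after normalisation by the trimmed mean of M-values (TMM), and since they are not corrected for gene length they are compared between stages of 1 gene only. Changes are edgeR log2 estimates ± SE, and a gene outside the 6 was called at an edgeR quasi-likelihood adjusted p under 0.05. At that threshold 47.1%, 44.1% and 9.4% of tested identifiers were called at 2, 3 and 10 dpa against 0 dpa, 3.77% between 2 and 3 dpa and 19.6% between 3 and 10 dpa. The 3 comparisons with 0 dpa share its libraries. In pooled fin tissue fewer cells of a type and less RNA per cell cannot be told apart.

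Of the 6 genes, FGF20 and SALL1 stood higher after amputation than in the uncut fin, and WNT3A, jag1b, CXCL12 and edn3b stood lower at 2 and 3 dpa. Among the ligands, FGF20 had its highest mean at 2 dpa and the other 4 had theirs at 0 dpa. Whether the blastema made any of them was not tested, because each library came from pooled fin tissue. How much regrown and older tissue each library held was not measured. At 2 dpa and at 3 dpa the 3 libraries did not overlap those of 0 dpa for 6 of 6 genes. The same lack of overlap, in either direction, was found in 54.6% of all tested identifiers at 2 dpa and in 56.4% at 3 dpa. At 10 dpa it held for 5 of the 6 genes, WNT3A being the exception, against 33.9% of tested identifiers. Between 2 and 3 dpa it held for 3 of them (FGF20, edn3b and CXCL12) against 18.3%, and between 3 and 10 dpa for 5, all but CXCL12, against 39.5%. For edn3b the gap between 2 and 3 dpa was only 0 counts in each library against 1, 2 and 1 counts. Since the genes were picked from these stages, nothing is read from these shares. The median log2 change over all tested identifiers lay between -0.02 and 0.05 in the 5 comparisons.

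**Figure D1:**
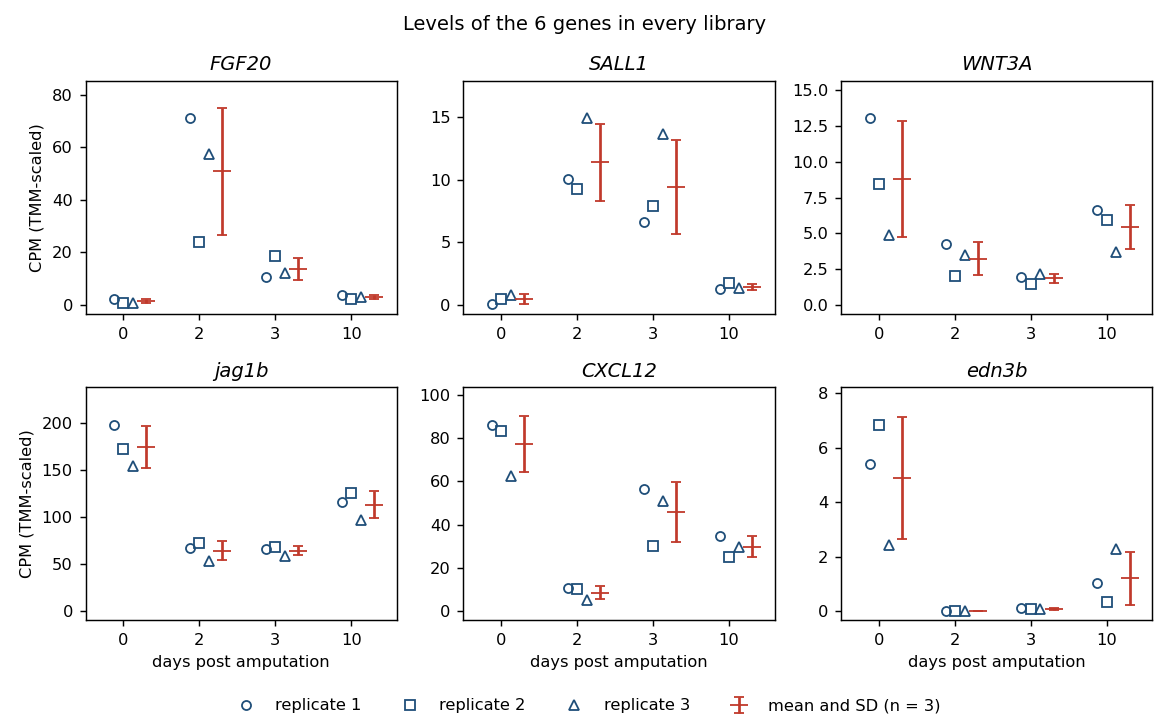
Level of each of the 6 genes in each of the 12 libraries (y axis, TMM-normalised CPM, linear scale from 0, a scale of its own for each gene) by stage (x axis, days post amputation), with the stage mean and SD in red (n = 3). FGF20 and SALL1 are lowest at 0 dpa, WNT3A, jag1b and CXCL12 have their highest mean there, and edn3b has 0 counts in the 3 libraries of 2 dpa.

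FGF20 had a sharp peak at 2 dpa. At 0 dpa its level was 2.21, 0.865 and 0.931 CPM in replicates 1, 2 and 3, from 27, 10 and 8 counts. At 2 dpa it was 71.0, 23.9 and 57.6 CPM. At 3 dpa it was 10.6, 18.5 and 12.3 CPM, and at 10 dpa 3.65, 2.33 and 3.10 CPM. Every 2 dpa library was above every 3 dpa library, and every 3 dpa library above every library of the other two stages. At 10 dpa the lowest library, 2.33 CPM, was only just above the highest of 0 dpa, 2.21 CPM. The spread at 2 dpa was wide, with replicate 2 the lowest of the 3. The mean there was 50.8 ± 24.3 (SD, n = 3) against 1.34 ± 0.760 at 0 dpa. The log2 change was 5.21 ± 0.47 at 2 dpa, a 37.0-fold difference. By 3 dpa it was 3.34 ± 0.46 (10.1-fold), and by 10 dpa 1.13 ± 0.48 (2.20-fold). These folds lean on 1 uncut library, because without 0 dpa replicate 1 they were 56.4, 15.4 and 3.34. From 2 to 3 dpa the log2 change was -1.87 ± 0.38, and from 3 to 10 dpa -2.21 ± 0.41.

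The further FGF20 identifier, ENSDARG00000086070, was rare and had its highest mean at 3 dpa and not at 2 dpa. Its level was 0.144 ± 0.183 at 0 dpa, 0.876 ± 0.293 at 2 dpa, 1.65 ± 0.237 at 3 dpa and 0.700 ± 0.513 at 10 dpa (CPM, mean ± SD, n = 3). It was higher than in the uncut fin at 3 dpa by 3.63 ± 0.78 (log2, adjusted p = 0.00201), and by 3.02 to 5.05 without 0 dpa replicate 2 or 3. The 2 dpa change became 2.10 or 4.13 in the same way. At 2 dpa its log2 change was 2.71 ± 0.81 (adjusted p = 0.0141), a call lost without 0 dpa replicate 1 (adjusted p = 0.0602) or replicate 2 (adjusted p = 0.0595). FGF10, a mesenchymal FGF ligand, rose at both early stages, from 5.41 ± 0.591 to 16.2 ± 6.25 and 16.9 ± 4.84 CPM (2 dpa log2 change 1.58 ± 0.31, adjusted p = 0.00106). FGF18 on identifier ENSDARG00000088048 fell from 5.17 ± 0.360 to 1.11 ± 0.392 CPM at 2 dpa (adjusted p = 1.58e-04) and stood at 5.67 ± 1.31 CPM at 10 dpa.

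At 2 dpa, where FGF20 was highest, 5 of 7 FGF receptor genes were lower than in the uncut fin, and the ETV target genes ETV4, etv5a and etv5b were higher. Of 24 tested genes of the FGF list other than FGF20, 6 rose and 10 fell at 2 dpa, against 22.9% and 24.1% of all tested identifiers. At 3 dpa 7 rose and 5 fell, against 22.8% and 21.3%. The list's median log2 change was -0.45 at 2 dpa and -0.17 at 3 dpa. No receptor gene rose at 2 dpa, and 3 of the 7 fell at 3 dpa. The receptor fgfr4 went from 83.4 ± 8.98 CPM at 0 dpa to 7.52 ± 2.66 at 2 dpa, 11.0-fold lower (log2 -3.46 ± 0.30, adjusted p = 1.79e-06). Its level was 22.7 ± 6.95 CPM at 3 dpa and 86.5 ± 4.55 at 10 dpa, and the 3 to 10 dpa difference was called (adjusted p = 4.03e-04). FGFR3 fell from 94.1 ± 3.81 to 25.2 ± 5.02 CPM (adjusted p = 1.78e-05). FGFR1 on ENSDARG00000011190 fell by 1.46 ± 0.27 on the log2 scale at 2 dpa (adjusted p = 6.65e-04), while the other FGFR1 identifier, ENSDARG00000011027, stood at 130.1 ± 7.77 CPM at 0 dpa and 97.0 ± 3.55 at 2 dpa (adjusted p = 0.0659).

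Of 10 FGF target and feedback genes, 4 rose and 2 fell at 2 dpa, against 22.9% and 24.1% of all tested identifiers. At 3 dpa 5 rose and 0 fell, against 22.8% and 21.3%. ETV4, an ETS factor induced by FGF signalling, went from 99.1 ± 8.29 CPM to 568 ± 248 at 2 dpa and 481 ± 94.5 at 3 dpa, then stood at 139 ± 45.2 at 10 dpa. Its log2 change at 2 dpa was 2.52 ± 0.33 (adjusted p = 4.20e-05). The related etv5b went from 29.9 ± 11.0 to 218 ± 30.7 CPM at 2 dpa (log2 2.87 ± 0.25, adjusted p = 2.07e-06) and 137 ± 3.13 at 3 dpa. Feedback inhibitors did not share 1 direction. DUSP6, an ERK phosphatase, stood at 312 ± 8.32 CPM at 0 dpa and 279 ± 75.5 at 2 dpa (adjusted p = 0.553). Of the 2 that fell at 2 dpa, SPRY2 went down by 0.81 ± 0.19 on the log2 scale (adjusted p = 0.00375). SPRED2 was the other (adjusted p = 0.0459), a call lost without any single 0 dpa library, 2 dpa replicate 2 or 3, 3 dpa replicate 1 or 3, or 10 dpa replicate 3, with an adjusted p of 0.0225 to 0.130 over all alternatives. SPRY4 rose at 2 dpa (log2 0.81 ± 0.25, adjusted p = 0.0178) and at 3 dpa (log2 0.89 ± 0.25, adjusted p = 0.0111). Proliferation genes had a summed level of 134 to 221 CPM over 7 identifiers at 0 dpa, 580.0 to 772 at 2 dpa and 592 to 737 at 3 dpa, and epidermal marker genes (5 identifiers) 61551 to 82130.2, 40281 to 63889.9 and 27339.6 to 28457 CPM. The largest epidermal means were those of krt5, at 55287, 37573 and 22649 CPM at 0, 2 and 3 dpa. Unlike the epidermal sum, the mean of krt4 did not fall at 2 dpa (10622 CPM, against 10611 at 0 dpa). The part of proliferating or epidermal cells in the courses of FGF20 and the FGF list was not tested.

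**Figure D2:**
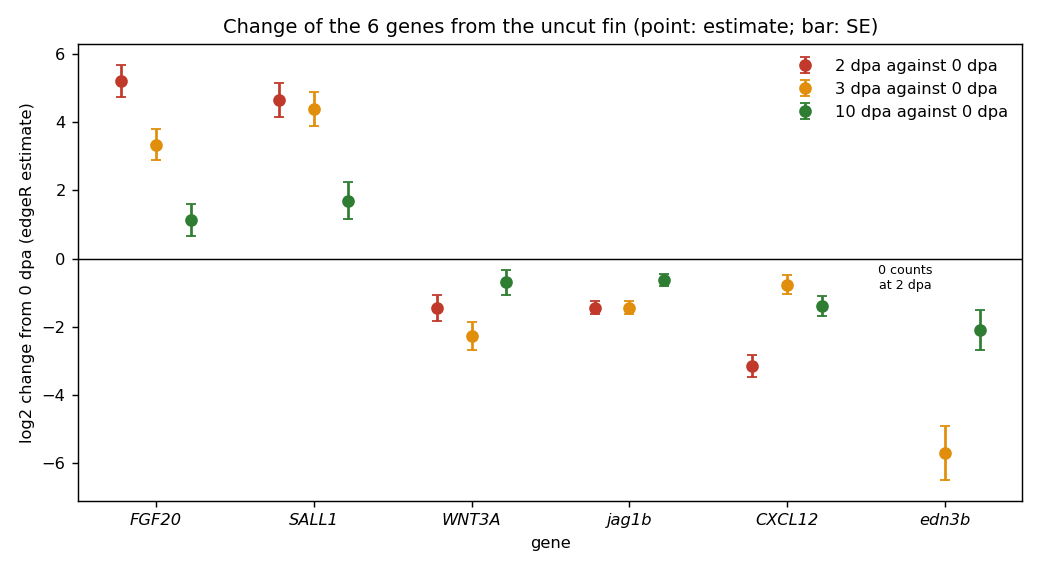
Change of each of the 6 genes (x axis) from 0 dpa (y axis, edgeR log2 estimate, bars are standard errors) at 2, 3 and 10 dpa. FGF20 and SALL1 lie above 0 at the 3 later stages and the other 4 genes below it, and edn3b at 2 dpa is not drawn because it had 0 counts there.

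SALL1 was nearly absent from the uncut fin, and unlike FGF20 its 3 dpa libraries overlapped those of 2 dpa. At 0 dpa it had 1, 6 and 7 counts, or 0.0820, 0.519 and 0.814 CPM. At 2 dpa the values were 10.1, 9.25 and 14.9 CPM, and at 3 dpa 6.66, 7.96 and 13.7 CPM. At 10 dpa they were 1.24, 1.75 and 1.34 CPM, above each 0 dpa library and below each early library. The 2 and 3 dpa libraries overlapped, and no other pair of stages did. Mean levels were 0.472 ± 0.369, 11.4 ± 3.07, 9.44 ± 3.75 and 1.44 ± 0.267 CPM in order of time. The log2 change from 0 dpa was 4.66 ± 0.50 at 2 dpa (25.2-fold), 4.39 ± 0.50 at 3 dpa (20.9-fold) and 1.70 ± 0.55 at 10 dpa (3.24-fold). These folds also lean on single uncut libraries, since without 0 dpa replicate 3 they were 37.5, 31.2 and 4.82. With 1 library left out, the log2 change at 2 dpa ranged from 4.11 to 5.23. From 2 to 3 dpa the log2 change was -0.27 ± 0.37, within its error of 0. From 3 to 10 dpa it was -2.69 ± 0.42, or 6.46-fold lower.

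Of 5 other Spalt genes tested, 3 rose at 2 dpa, 4 at 3 dpa and 1 at 10 dpa, and 0 fell. The shares of all tested identifiers that rose were 22.9%, 22.8% and 6.62%. The further SALL1 identifier, ENSDARG00000074319, was at 65.1 ± 9.45 CPM in the uncut fin. It rose to 213 ± 63.3 at 2 dpa (log2 1.71 ± 0.24, adjusted p = 7.58e-05) and to 252 ± 37.8 at 3 dpa (adjusted p = 3.63e-05). At 10 dpa it stood at 149 ± 20.5 CPM (adjusted p = 0.00838), the only Spalt call at that stage. Leaving out 0 dpa replicate 2 ended it (adjusted p = 0.0515), and leaving out 2 dpa replicate 2 or 3 brought the Spalt count at 10 dpa to 2 or 3. SALL4 rose from 3.50 ± 1.38 to 26.2 ± 13.9 CPM at 2 dpa (adjusted p = 7.12e-05) and 35.4 ± 4.36 at 3 dpa (adjusted p = 3.36e-05), and was lower again at 10 dpa, 7.26 ± 1.19 CPM (adjusted p = 0.00112 against 3 dpa). The level of sall2 was 12.3 ± 2.63 at 0 dpa, 43.5 ± 6.89 at 2 dpa, 45.6 ± 0.881 at 3 dpa and 17.0 ± 2.92 at 10 dpa CPM (adjusted p = 1.88e-05 at 2 dpa). At 3 dpa sall3b rose (log2 1.52 ± 0.35, adjusted p = 0.00306), and SALL3 was not called (adjusted p = 0.0807).

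**Figure D3:**
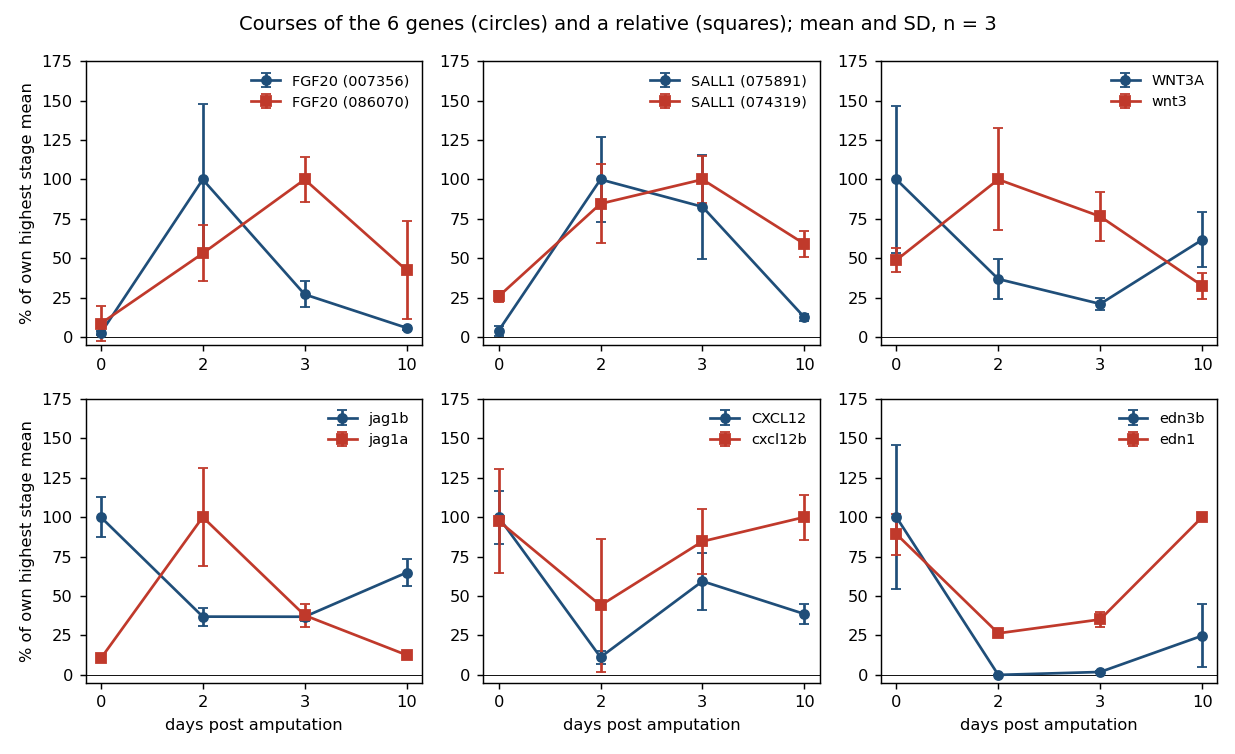
Mean level of each of the 6 genes (circles) and of a related gene (squares) as a percentage of that gene's own highest stage mean (y axis) by stage (x axis, days post amputation, not to scale), with bars for the SD (n = 3). At 2 dpa jag1b stands at 36.9% and WNT3A at 36.9% of their highest stage while jag1a and wnt3 are at their own peak.

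WNT3A was lower after amputation, with little space between stages. At 0 dpa it had 13.0, 8.48 and 4.89 CPM. At 2 dpa it had 4.23, 2.00 and 3.52 CPM, at 3 dpa 1.95, 1.49 and 2.13 CPM and at 10 dpa 6.65, 5.94 and 3.72 CPM. In order of mean the stages were 0, 10, 2 and 3 dpa, and each neighbour in that order overlapped the next. Only the libraries of 0 dpa against 2 or 3 dpa, and of 10 against 3 dpa, were apart. The log2 change from 0 dpa was -1.44 ± 0.38 at 2 dpa, -2.27 ± 0.40 at 3 dpa and -0.69 ± 0.37 at 10 dpa. Between 3 and 10 dpa it was 1.57 ± 0.40. In the uncut fin replicate 3 was the lowest library for WNT3A, and also for edn3b, jag1b and CXCL12.

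The closely related ligand wnt3 took the other direction at 2 dpa. Its level was 16.3 ± 2.55 at 0 dpa, 33.3 ± 10.8 at 2 dpa, 25.5 ± 5.24 at 3 dpa and 10.9 ± 2.75 at 10 dpa CPM, and it rose from 0 to 2 dpa (log2 1.03 ± 0.28, adjusted p = 0.00801). At 3 dpa it was not called (adjusted p = 0.0755). From 3 to 10 dpa it fell (adjusted p = 0.00829). Other Wnt ligands also split, with 5 of 14 higher and 6 lower at 2 dpa, against 22.9% and 24.1% of all tested identifiers. At 3 dpa 3 were higher and 4 lower, against 22.8% and 21.3%. WNT10A, a ligand of skin and its appendages, rose from 5.46 ± 1.37 to 24.5 ± 4.55 CPM (adjusted p = 1.07e-05). WNT11, known for beta-catenin-independent signalling, fell from 57.9 ± 8.30 to 2.24 ± 2.45 CPM (adjusted p = 2.51e-05), and its 2 dpa libraries ranged from 0.313 to 4.99 CPM. The log2 change was -4.68 ± 0.57, and -5.95 without 2 dpa replicate 2.

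Of 49 tested genes of the Wnt list other than WNT3A, 15 rose and 23 fell at 2 dpa, against 22.9% and 24.1% of all tested identifiers. At 3 dpa 15 rose and 12 fell, against 22.8% and 21.3%. The median log2 change was -0.53 and 0.11. Wnt receptors and coreceptors called at 2 dpa were mostly lower, with 3 of 15 higher and 8 lower. The 3 became 1 without 0 dpa replicate 2 or 2 dpa replicate 2. At 3 dpa the receptors were split, with 3 higher and 4 lower. Of 5 genes that transduce or respond to beta-catenin signalling, 3 rose at 2 dpa and 4 at 3 dpa, and 0 fell. LEF1, a transcription factor that binds beta-catenin, was at 38.7 ± 9.18 at 0 dpa, 286 ± 65.0 at 2 dpa, 356 ± 98.1 at 3 dpa and 109.6 ± 15.5 at 10 dpa CPM (2 dpa log2 change 2.88 ± 0.28, adjusted p = 4.69e-06). TCF7 rose from 33.1 ± 2.18 to 231 ± 76.1 CPM (adjusted p = 7.11e-06). SP5, a widely used Wnt target, rose from 0.643 ± 0.0562 to 8.10 ± 0.678 CPM at 3 dpa (adjusted p = 5.21e-05).

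The Notch ligand jag1b was the steadiest of the 6 genes between libraries at each stage where all had counts. Its coefficient of variation there was 7.39% at 3 dpa to 12.8% at 10 dpa, and it was 15.5% at 2 dpa. Its libraries held 576 to 2412 counts, against 1 to 2 for edn3b at 3 dpa and 1 to 7 for SALL1 at 0 dpa. The part of counting error in this ranking was not tested. At 0 dpa jag1b was at 198, 172 and 154 CPM. At 2 dpa it was at 67.2, 72.7 and 53.3 CPM and at 3 dpa at 66.1, 67.8 and 58.9 CPM. At 10 dpa it was at 116, 126 and 97.4 CPM, above each early library and below each uncut library. Only 2 and 3 dpa overlapped, and their means, 64.4 ± 9.99 and 64.3 ± 4.75 CPM, differed by less than either SD. The log2 change from 0 dpa was -1.44 ± 0.19 at 2 dpa, -1.44 ± 0.19 at 3 dpa and -0.62 ± 0.19 at 10 dpa. From 3 to 10 dpa it was 0.82 ± 0.19.

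Its paralog jag1a was higher at 2 and 3 dpa, where jag1b was lower. The level of jag1a was 15.3 ± 2.80 at 0 dpa, 147 ± 45.8 at 2 dpa, 55.6 ± 10.6 at 3 dpa and 18.6 ± 2.08 at 10 dpa CPM. It rose 9.57-fold at 2 dpa (log2 3.26 ± 0.26, adjusted p = 1.24e-06) and by 1.86 ± 0.25 at 3 dpa (adjusted p = 6.56e-05), and at 10 dpa was not called (adjusted p = 0.505). The Delta ligand dlc fell from 41.3 ± 5.56 to 2.45 ± 0.938 CPM at 2 dpa (log2 -4.09 ± 0.40, adjusted p = 4.62e-06). DLL1 on ENSDARG00000020219, a Delta ligand too, went from 6.91 ± 0.758 to 0.951 ± 0.832 CPM (adjusted p = 1.75e-04), a log2 change of -2.84 ± 0.44 that was -3.69 without 2 dpa replicate 2. Of 7 Notch ligands, 3 rose and 4 fell at 2 dpa, against 22.9% and 24.1% of all tested identifiers. At 3 dpa 1 rose and 3 fell, against 22.8% and 21.3%. At 2 dpa the 3 became 1 without 0 dpa replicate 1 or 2 dpa replicate 2, and the 4 became 2 without 0 dpa replicate 1.

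Of 32 tested genes of the Notch list other than jag1b, 8 rose and 13 fell at 2 dpa, against 22.9% and 24.1% of all tested identifiers. At 3 dpa 6 rose and 10 fell, against 22.8% and 21.3%. The shares that rose were near those of all identifiers, and the median log2 changes were -0.24 and -0.23. The 8 that rose at 2 dpa became 4 without 0 dpa replicate 1 and 5 without 0 dpa replicate 2 or 2 dpa replicate 3. Receptors were lower where called. NOTCH1 went from 32.9 ± 8.51 CPM to 7.59 ± 2.59 at 2 dpa (adjusted p = 2.81e-05) and 10.1 ± 0.764 at 3 dpa (adjusted p = 1.63e-04). NOTCH3 fell at 2 dpa (log2 -0.72 ± 0.22, adjusted p = 0.0176) and at 3 dpa (log2 -1.24 ± 0.23, adjusted p = 6.69e-04). The receptor notch2 was not called at 2 dpa (adjusted p = 0.426) or 3 dpa (adjusted p = 0.122). Among 9 Notch target genes, 0 rose and 5 fell at 2 dpa, or 3 without 0 dpa replicate 2 or 2 dpa replicate 1. The repressor HEY2 went from 3.34 ± 0.0547 to 0.265 ± 0.0997 CPM at 2 dpa (adjusted p = 4.28e-05). The related heyl went from 7.95 ± 4.01 to 1.91 ± 0.569 (adjusted p = 8.01e-04) and stood at 11.6 ± 2.60 CPM at 10 dpa. HES1, also a Notch-responsive repressor, instead rose at 3 dpa (log2 1.48 ± 0.38, adjusted p = 0.00687), and HEY1 was not called at 2 dpa (adjusted p = 0.614). LFNG, which adds sugars to Notch, rose from 31.1 ± 3.75 to 91.7 ± 25.7 CPM at 2 dpa (adjusted p = 1.56e-04).

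CXCL12 was lowest at 2 dpa and by 3 dpa stood higher again. At 0 dpa it was at 86.1, 83.3 and 62.4 CPM. At 2 dpa it was at 10.7, 10.2 and 5.08 CPM, below each library of every other stage. At 3 dpa it was at 56.4, 30.0 and 51.1 CPM, and at 10 dpa at 34.7, 24.9 and 29.9 CPM, and these stages overlapped. The 0 dpa libraries were above all others. The mean went from 77.2 ± 13.0 to 8.67 ± 3.11 CPM, a log2 change of -3.15 ± 0.31, or 8.86-fold lower. From 2 to 3 dpa the log2 change was 2.39 ± 0.31, or 5.25-fold higher. At 3 dpa the change from 0 dpa was -0.76 ± 0.29, at 10 dpa it was -1.37 ± 0.29, and from 3 to 10 dpa it was -0.62 ± 0.29.

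The copy annotated as cxcl12b was rare, at 0.938 ± 0.317 at 0 dpa, 0.424 ± 0.404 at 2 dpa, 0.813 ± 0.199 at 3 dpa and 0.962 ± 0.137 at 10 dpa CPM, and was not called at 2 dpa (adjusted p = 0.206). The receptor genes had no common course. CXCR4 on ENSDARG00000057633 was at 80.4 to 167 CPM at 0 dpa and 35.2 to 65.4 at 2 dpa (range of 3 libraries), a log2 change of -1.15 ± 0.36 (adjusted p = 0.0175) whose call was lost without 0 dpa replicate 2 (adjusted p = 0.106) or 2 dpa replicate 3 (adjusted p = 0.0649). The other CXCR4 identifier, ENSDARG00000041959, stood at 46.6 ± 5.92 and 47.0 ± 7.29 CPM (adjusted p = 0.961). ACKR3 on ENSDARG00000062478 rose at 3 dpa, from 0.604 ± 0.122 to 4.04 ± 0.369 CPM (adjusted p = 0.00433), and ACKR3 on ENSDARG00000058179 was not called at 2 dpa (adjusted p = 0.357) or 3 dpa (adjusted p = 0.354). Endothelial marker genes, from 7 identifiers, summed to 69.6 to 97.6 CPM at 0 dpa, 17.6 to 33.3 at 2 dpa, 50.8 to 66.3 at 3 dpa and 92.2 to 103 at 10 dpa. These sums too were lowest at 2 dpa, but not every gene in them was. The mean of cdh5 was lowest at 0 dpa (0.0288 CPM, against 0.211 at 2 dpa), and lyve1b was at 0 at 0 and 10 dpa. The part of endothelial cells in the course of CXCL12 was not tested.

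The gene edn3b had the deepest drop of the 6 relative to its uncut level, and was not detected at 2 dpa. Its counts at 0 dpa were 66, 79 and 21, or 5.41, 6.83 and 2.44 CPM. At 2 dpa it had 0 counts in all 3 libraries. At 3 dpa it had 1, 2 and 1 counts, and at 10 dpa 14, 6 and 22, or 1.02, 0.349 and 2.27 CPM. Against a floor of 3 counts over the 2 dpa group, 0.0629 CPM, the 2 dpa level was at least 77.8-fold lower than at 0 dpa and at least 19.3-fold lower than at 10 dpa. At 3 dpa the ratio to 0 dpa rested on 4 counts against 166 and was 59.8-fold lower, with a 95% interval of 22.9 to 222 that covers counting error only. Against 10 dpa it was 12.1-fold lower (4.38 to 46.4), and the fitted difference was 7.13-fold without 10 dpa replicate 3. The 10 dpa libraries were below those of 0 dpa, but by little, since the highest of 10 dpa was 2.27 CPM and the lowest of 0 dpa 2.44 CPM. The log2 change between these stages was -2.09 ± 0.58, or 4.25-fold lower, and without 10 dpa replicate 3, which had the most counts of its stage, it was 7.25-fold lower.

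Of the endothelin B receptor genes, 1 went down with edn3b and the other went up. EDNRB on ENSDARG00000089334 was at 15.3 ± 2.25 at 0 dpa, 0.271 ± 0.235 at 2 dpa, 0.827 ± 0.183 at 3 dpa and 12.0 ± 1.92 at 10 dpa CPM, and fell at 2 dpa (adjusted p = 6.41e-07) and 3 dpa (adjusted p = 3.06e-06). The log2 change at 2 dpa was -5.77 ± 0.41, and -6.59 without 2 dpa replicate 2. From 3 to 10 dpa it rose (adjusted p = 2.11e-05). EDNRB on ENSDARG00000053498 was at 1.16 ± 0.575 at 0 dpa, 44.3 ± 17.5 at 2 dpa, 16.6 ± 2.05 at 3 dpa and 2.22 ± 0.411 at 10 dpa CPM, rose 37.6-fold at 2 dpa (log2 5.23 ± 0.39, adjusted p = 8.12e-07) and fell from 3 to 10 dpa (adjusted p = 1.18e-04). The A receptors were called at different stages. EDNRA on ENSDARG00000011876 fell at 2 dpa (log2 -1.20 ± 0.30, adjusted p = 0.00504) and was not called at 3 dpa (adjusted p = 0.339). The receptor ednrab rose at 3 dpa, from 1.75 ± 1.08 to 34.8 ± 11.2 CPM (adjusted p = 0.00188), and was not called at 2 dpa (adjusted p = 0.141). The ligand edn1 fell from 2.70 ± 0.394 to 0.799 ± 0.0640 CPM at 2 dpa (adjusted p = 4.44e-04) and stood at 3.03 ± 0.0356 at 10 dpa, whereas edn2 was at 2.52 ± 0.623 and 2.73 ± 1.80 CPM (adjusted p = 0.895). Over the 12 tested genes of the CXCL12 and endothelin list, 1 rose and 4 fell at 2 dpa, against 22.9% and 24.1% of all tested identifiers. At 3 dpa 3 rose and 2 fell, against 22.8% and 21.3%. The share called in either direction, 41.7% at both stages, was near that of all identifiers, and the median log2 changes were 0.05 and 0.21. The 1 that rose at 2 dpa became 3 without 2 dpa replicate 3.

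Pigment cell markers, given here because endothelin receptors are used by pigment cells, were low at 2 and 3 dpa, as edn3b was. Melanophore genes (8 identifiers) summed to 271 to 389 CPM at 0 dpa, 13.2 to 21.0 at 2 dpa, 18.9 to 60.0 at 3 dpa and 396 to 478 at 10 dpa. Xanthophore genes (3 identifiers) summed to 40.4 to 68.0, 0.860 to 2.53, 3.31 to 7.12 and 34.0 to 45.9 CPM. Iridophore genes (3 identifiers) summed to 11.2 to 14.8, 2.66 to 6.86, 7.71 to 9.74 and 16.3 to 20.2 CPM, with pnp4b at 0 at 0, 3 and 10 dpa. Glial genes (5 identifiers) summed to 71.7 to 87.4, 19.0 to 27.9, 19.4 to 24.4 and 69.1 to 71.8 CPM, with FOXD3 at 0 at each stage. At 10 dpa the melanophore and iridophore sums were above their 0 dpa ranges while edn3b was still below its own. The xanthophore and glial sums at 10 dpa instead overlapped their 0 dpa ranges and reached below them. Most of the iridophore sum came from ltk at each stage. Unlike the melanophore sum, MITF on ENSDARG00000037833 had its highest mean at 2 dpa. The part of pigment and glial cells in the courses of edn3b and its receptors was not tested.

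**Figure D4:**
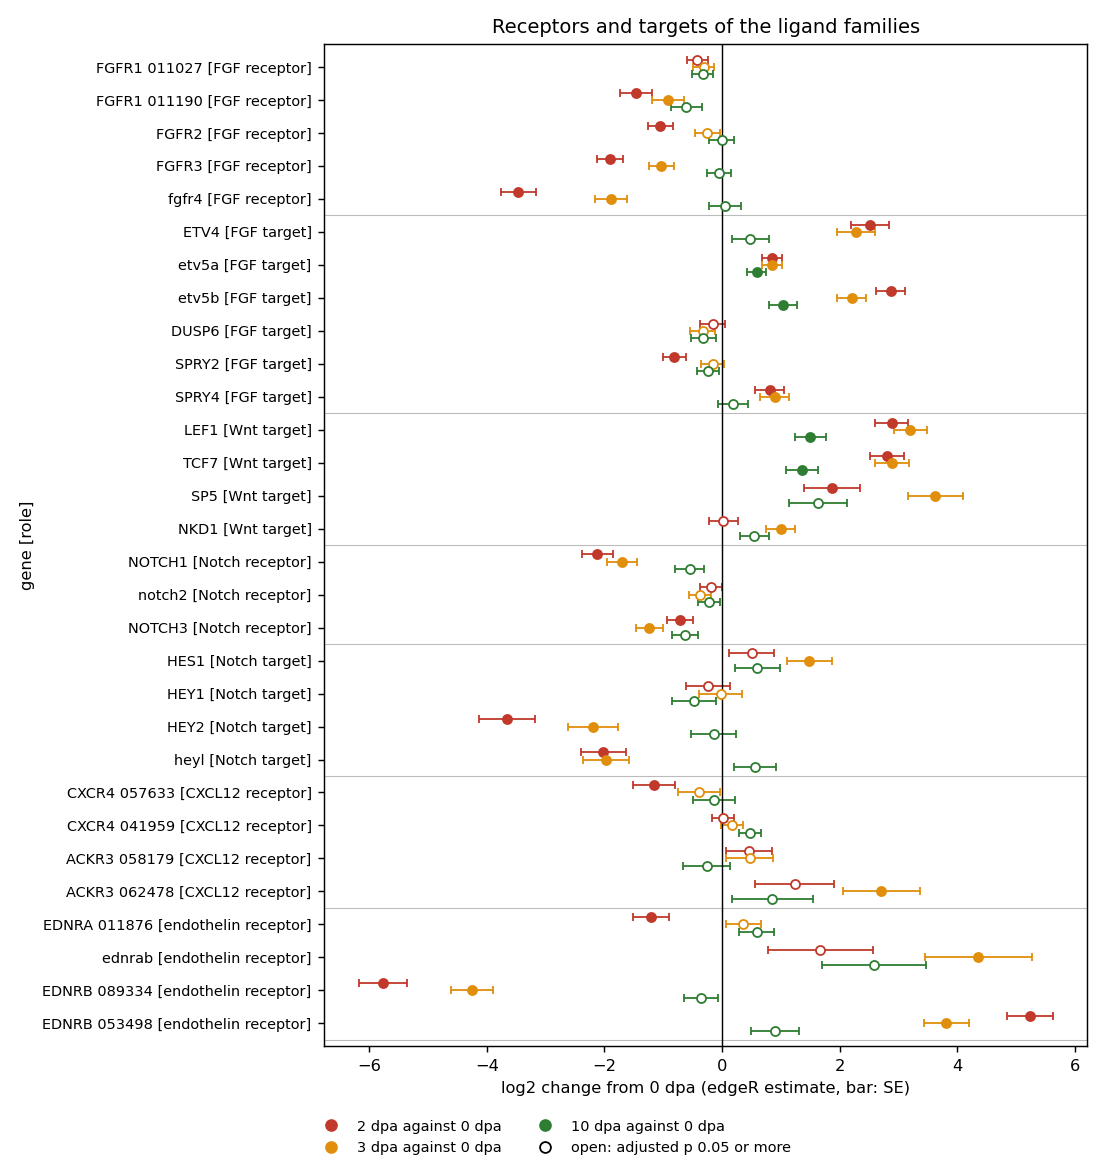
Change from 0 dpa (x axis, edgeR log2 estimate, bars are standard errors) of receptors and target genes of the ligand families (y axis, with the last digits of an identifier where a symbol repeats) at 2, 3 and 10 dpa, with filled points for an adjusted p under 0.05. FGF and Notch receptors lie to the left of 0 at 2 dpa, LEF1 and TCF7 to the right, and the EDNRB identifiers on opposite sides.

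At 10 dpa fewer genes of the lists were called, and the counts moved with single libraries. Of the 24 FGF genes, 3 rose and 0 fell, against 6.62% and 2.78% of all tested identifiers. The 3 that rose were etv5b, etv5a and FLRT3, a membrane protein that binds FGF receptors. That count was 0 without 0 dpa replicate 1 or 2 or 10 dpa replicate 3, and 1 without any single 3 dpa library or without 10 dpa replicate 1 or 2. Of the 49 Wnt genes 7 rose and 2 fell. The 7 became 4 without 0 dpa replicate 1 or 2 and 11 without 2 dpa replicate 2. The 2 that fell were WIF1 and dkk2. The count that fell became 0 without 0 dpa replicate 1 or 2 or 10 dpa replicate 1 or 3. It became 1 without 0 dpa replicate 3, 3 dpa replicate 3 or 10 dpa replicate 2. Without 10 dpa replicate 2 both WIF1 and dkk2 lost their call, and the 1 was another gene. Of the 32 Notch genes 1 rose and 1 fell. The 1 that rose, POFUT1, lost its call without 0 dpa replicate 2 or 3 or any single 3 or 10 dpa library. The 1 that fell, dlc, lost it without any single 0 or 10 dpa library or without 3 dpa replicate 3, and 3 Notch genes fell without 2 dpa replicate 2. Of the 12 CXCL12 and endothelin genes edgeR called 0, with 4 at an unadjusted p under 0.05, and DESeq2 called 1. There 1 rose without 2 dpa replicate 1 and 2 rose without 2 dpa replicate 2 or 3. The median log2 change at 10 dpa was 0.09 for the FGF list, 0.32 for Wnt, -0.006 for Notch and 0.32 for CXCL12 and endothelin.

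The 6 genes were also set against each other and against all tested genes that have a symbol, by Pearson's r of log2 CPM (prior count 2) over the 12 libraries. The libraries share their stages, so these values describe the courses and carry no test. Pearson's r does not take the size of a change into account. The 2 dpa libraries, with 0 counts for edn3b, all stood at its floor of -2.80, so its r values rest partly on that floor. FGF20 and SALL1 had r = 0.869. SALL1 and jag1b ran nearly opposite in shape, r = -0.973, as did SALL1 and edn3b, r = -0.950. They differed in size, since at 2 dpa SALL1 was 25.2-fold higher and jag1b 2.71-fold lower than at 0 dpa. Among the genes that were lower after amputation, edn3b and jag1b were close, r = 0.912, and WNT3A and CXCL12 were not, r = 0.358.

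Nearest to FGF20 were krt18a.1, a simple-epithelium keratin (r = 0.990), FN1 on ENSDARG00000006526, which encodes fibronectin (r = 0.984), and TMEM169 (r = 0.983). The level of krt18a.1 was 629.8 ± 253, 15413 ± 6564, 5121 ± 623 and 1319 ± 183 CPM at 0, 2, 3 and 10 dpa. SALL1 was nearest to TMED7, a cargo receptor of the early secretory pathway (r = 0.980), SH3GL2 (r = 0.978) and HSDL2 (r = 0.976). The mean of TMED7 moved little, at 101, 132, 136 and 111 CPM at 0, 2, 3 and 10 dpa. For edn3b the nearest gene was raraa, a retinoic acid receptor (r = 0.996), at 7.65 ± 1.69, 0.778 ± 0.0221, 1.15 ± 0.158 and 3.23 ± 1.21 CPM in the same order, followed by gad3 (r = 0.975) and FNDC7 (r = 0.974). The closest to jag1b were abi3bpa (r = 0.982), zgc:113337 (r = 0.982) and MSRB1 (r = 0.980). In the same order of stages abi3bpa had means of 37.8, 0.390, 0.335 and 6.68 CPM. Those of zgc:113337 were 9.47, 0.0444, 0.0404 and 1.48 CPM. Both fell far more than jag1b and were near the floor at 2 and 3 dpa, so their r rests partly on it. WNT3A lay nearest to mst1ra (r = 0.965), STS (r = 0.949) and bcl2l13 (r = 0.947). CXCL12 had the least close neighbours of the 6, si:dkey-9i23.16 (r = 0.947), CITED1 (r = 0.927) and INHBB (r = 0.925), the last a subunit of activin B.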

How the data were processed

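RNA was extracted with the Macherey-Nagel RNA XS kit without carrier RNA, and libraries were built with the Lexogen SENSE mRNA-Seq kit for SOLiD Wildfire sequencing, per the labels' protocols. The authors deposited 1 table of raw read counts per gene identifier. For the aligner, counter, genome build, annotation and strand setting, nothing is recorded: each is not given in the sources used here. Symbols came from a separate list of gene names, which pairs 21939 of 33737 identifiers (65.0%) with a symbol.

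The counts were analysed with edgeR 4.0.16 in R 4.3.3 with limma 3.58.1 (TMM factors, filterByExpr with a minimum count of 10, robust quasi-likelihood fit, stage as the only term, the 12 libraries in 1 fit, Benjamini-Hochberg adjustment over all 16612 tested identifiers). The common biological coefficient of variation was 26.9%. Log2 CPM used a prior count of 2. The script was tested on simulated data. Alternatives were DESeq2 1.42.0, relative log expression (RLE) size factors, no filter on low counts, fits of the compared stages only, a replicate block, and leaving out each library. Each library pools fish, and the p-values therefore rest on how pools varied.

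The 6 genes and the pathway lists were chosen with earlier results of these data known, and the 6 genes were left out of every list count. The lists held 172 entries, of which 32 had no matching symbol, and 139 of the 176 matched identifiers were tested. Genes named beside the 6 are their paralogs, the receptors of each ligand type, up to 4 genes called higher and 4 called lower per list and comparison with the smallest adjusted p, and the 3 genes with the highest r to each of the 6. DUSP6, SPRY2, SPRY4, SPRED2, WNT11, SP5, heyl and HEY1 were chosen after their values were seen. Intervals and floors cover counting error only.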

Additional observations from a re-analysis of the deposited data

How the results depend on the processing

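The direction of each of the 6 genes against 0 dpa was kept under every alternative run, and the sizes that moved over 1.5 times with 1 library stand beside them in the text. With DESeq2 the log2 change of edn3b from 2 to 3 dpa, a comparison with a stage at 0 counts, was 2.84 in place of 3.41. Counts over all tested identifiers depended on the settings most for 3 against 2 dpa, with 627 called, 36 with the compared stages only and 1019 with DESeq2, and 173 to 1393 with 1 library left out. For 10 against 0 dpa there were 1561, DESeq2 called 2361, and leaving out 1 library gave 483 to 2395. For 10 against 3 dpa there were 3251, and 2076 to 3847 with 1 library left out. Of the list counts at 10 dpa, the genes called lower over all lists were 3, or 7 with DESeq2 and 0 to 5 with 1 library left out, and those called higher were 19, or 4 to 29. FGF genes called higher were 3, or 1 with RLE factors and 0 to 3 with 1 library left out. Wnt genes called higher ranged from 4 to 11 and lower from 0 to 2 in the same way. The Notch gene called lower became 2 with the compared stages only, 4 with DESeq2 and 0 to 3 with 1 library left out, and that called higher 0 to 1. Endothelin and CXCL12 genes called higher became 2 with the compared stages only, 1 with DESeq2 and 0 to 2 with 1 library left out, and fin transcription factors called higher 0 to 12. At 2 dpa the Notch genes called higher became 5 with no filter on low counts and 4 to 8 with 1 library left out. CXCL12 and endothelin genes called higher became 1 to 3, and fin transcription factors called lower became 1 with the compared stages only and 1 to 3 with 1 library left out. Fits of the compared stages only, or with 1 library left out, hold fewer libraries, whereas the other alternatives use all 12. The cause of these shifts was not tested. RLE factors moved the median log2 change of all identifiers by at most 0.06.

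Replicate numbers repeat across stages, and in the column names each number goes with the same field, L01, L02 or L03, whose meaning the labels do not give. Deviations from the stage mean had a median r of 0.119 over 18 same-numbered pairs (-0.225 to 0.478, 11 over 0.1) and -0.0442 over 36 other pairs, 4 of them over 0.1. Same-numbered libraries thus resembled each other more often than others did, but not in every pair. For numbers 1 and 2 the likeness was clearest among 2, 3 and 10 dpa. There r was 0.224 to 0.396 between replicates 1 and 0.251 to 0.478 between replicates 2. Between a replicate 1 and a replicate 2 it was -0.381 to -0.166, and between replicates 3 it was -0.000321 to 0.142. Same-numbered pairs with 0 dpa ran from -0.225 to 0.186. There 2 dpa replicate 1 had a higher r with 0 dpa replicate 2 (0.135) than with 0 dpa replicate 1 (0.118). The fit without a block was kept, and whether the field marks a batch was not settled. With the replicate block, 8478 identifiers were called at 2 dpa, 8084 at 3 dpa and 2288 at 10 dpa, in place of 7818, 7331 and 1561. With it, fin transcription factors called lower at 2 dpa were 5 in place of 2, CXCL12 and endothelin genes called higher 2 in place of 1 at 2 dpa and 1 in place of 0 at 10 dpa, and Notch genes called lower at 10 dpa 2 in place of 1. Depth limits edn3b and FGF20 ENSDARG00000086070 most, whose low stages rest on few counts. It also limits SALL1, which had 14 counts in all at 0 dpa.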

Other observations

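Secreted modulators of Wnt signalling differed between stages in both directions. Of 14 tested, 4 rose and 9 fell at 2 dpa, against 22.9% and 24.1% of all tested identifiers. At 3 dpa 4 rose and 4 fell, against 22.8% and 21.3%. WIF1, which binds Wnt proteins outside the cell, was at 116 ± 13.9 at 0 dpa, 5.46 ± 2.57 at 2 dpa, 6.72 ± 1.92 at 3 dpa and 54.8 ± 8.61 at 10 dpa CPM, and fell at 2 dpa (adjusted p = 8.79e-07) and rose from 3 to 10 dpa (adjusted p = 4.44e-05). The Frizzled-related gene frzb was at 20.4 ± 2.58 at 0 dpa, 1.31 ± 0.874 at 2 dpa, 6.39 ± 2.29 at 3 dpa and 75.9 ± 1.27 at 10 dpa CPM, and exceeded its uncut level at 10 dpa (log2 1.89 ± 0.34, adjusted p = 0.00531). SFRP2, of the same class, fell from 66.6 ± 14.3 CPM at 0 dpa to 4.25 ± 1.84 at 2 dpa (adjusted p = 7.64e-06). At 3 dpa it stood at 72.2 ± 33.8 CPM, higher than at 2 dpa (adjusted p = 9.87e-04) and not called against 0 dpa (adjusted p = 0.819). DKK3 instead rose at 3 dpa, from 61.4 ± 35.7 to 506 ± 90.1 CPM (adjusted p = 4.06e-05).

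Over the 22 tested fin transcription factors other than SALL1, 8 rose and 2 fell at 2 dpa, against 22.9% and 24.1% of all tested identifiers. At 3 dpa 15 rose and 0 fell, against 22.8% and 21.3%, and at 10 dpa 8 rose and 0 fell, against 6.62% and 2.78%, with median log2 changes of 0.28, 1.22 and 0.79. The 2 that fell at 2 dpa became 1 without 0 dpa replicate 1 or 3 or 2 dpa replicate 3. The 8 that rose at 10 dpa became 0 without 0 dpa replicate 2, 3 without 0 dpa replicate 1 or any single 10 dpa library, and 5 without 0 dpa replicate 3 or 3 dpa replicate 1 or 3. Of the 17 that are not Spalt genes, 11 rose at 3 dpa. LHX2, a LIM homeobox factor, was at 4.99 ± 1.89 CPM at 0 dpa and 28.6 ± 9.22 at 2 dpa (adjusted p = 2.30e-05). The homeobox gene msx1b, a marker of the zebrafish blastema, was at 60.3 ± 3.41 CPM at 0 dpa and 226 ± 32.1 at 3 dpa (adjusted p = 3.01e-05). Osteoblast genes (7 identifiers) summed to 2529 to 7152 CPM at 0 dpa and 3875 to 8003 at 2 dpa. They summed to 12944 to 14107 at 3 dpa and 12212 to 15918 at 10 dpa, with bglap at 0 at 2 and 3 dpa. The largest means were those of SPARC, at 3745, 4947, 9584 and 9385 CPM at 0, 2, 3 and 10 dpa. COL10A1 followed, at 384, 532, 3736 and 4156 CPM. At 3 dpa SP7 was above its 0 dpa mean (61.6 against 14.9 CPM) and RUNX2 slightly so (63.0 against 55.9). The means of runx2b (77.1 against 82.3) and spp1 (33.3 against 86.5) were below theirs. SP7, RUNX2 and runx2b belong both to the osteoblast genes and to the fin transcription factor list, so these are not separate sets. The part of bone cells in the transcription factor counts was not tested. Muscle genes (7 identifiers) summed to 115 to 138, 60.2 to 93.2, 69.8 to 95.1 and 84.6 to 129.5 CPM, leukocyte genes (6 identifiers) to 87.0 to 114, 50.6 to 102, 43.7 to 70.6 and 81.3 to 105 CPM, and erythrocyte genes (3 identifiers) to 14.3 to 23.6, 7.92 to 22.4, 11.1 to 11.3 and 18.7 to 52.1 CPM. The largest muscle means were those of ACTA1. Unlike the muscle sum, TNNT3 on ENSDARG00000068457 was lowest at 0 dpa, with means of 0.571, 7.31, 6.16 and 1.62 CPM in order of time.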
